A study of Rattus norvegicus with 8 samples.

Results

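The genes described here are the chemosensory receptors of the rat genome, measured in lung: olfactory receptors, vomeronasal receptors of types 1 and 2, and taste receptors of types 1 and 2. They were found by gene symbol, through the RefSeq transcript to which each array probe belongs, and were 1276 of 16667 named genes on the array, with 1363 of its 45598 probes. 1 of them had to be set apart. Olr1 matches the naming pattern of older olfactory receptor symbols, but the gene table gives LOX-1 as its synonym, the receptor for oxidised low-density lipoprotein, and it is described separately below. The remaining 1362 probes covered 1223 olfactory, 101 vomeronasal and 38 taste receptor probes, from 1275 genes.

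The arrays came from 30 mg pieces of male rat lung, with Cy3-labelled cDNA made from 200 ng of RNA. The 4 groups held 2 arrays each. Smoke+EV lungs had 12 weeks of cigarette smoke and received, through the trachea in week 13, extracellular vesicles isolated from 2500000 human umbilical cord mesenchymal stem cells. Smoke+MSC lungs had the same exposure and received about 2500000 of the stem cells. Smoke lungs had the 12 weeks of exposure with no such treatment, and naive lungs came from rats breathing normal air. Rat strain and age were not given in the sources used here. The labels do not say that the 2 arrays of a group came from separate animals, so a p-value here speaks of the spread between 2 samples a group, and that spread may be technical.

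Olfactory receptors are G protein-coupled receptors, each olfactory neuron showing 1 of them at its cilia, where binding of an odorant raises cyclic AMP through the G protein Gnal and the cyclase Adcy3 and opens the channel built from Cnga2, Cnga4 and Cngb1. Vomeronasal receptors detect pheromones in a separate organ of the nose, type 1 receptors with the G protein Gnai2 and type 2 receptors with Gnao1, and their neurons depend on the channel Trpc2. Type 1 taste receptors detect sweet and umami compounds and type 2 receptors detect bitter ones. Both work through gustducin (Gnat3), the phospholipase Plcb2, the calcium channel Itpr3 and the cation channel Trpm5, a set of genes also used by tuft cells of the airway. Members of these families are close copies of each other. Probe sequences were not used here, so a value of 1 receptor can include signal from a near-identical one.

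Most receptor probes gave no signal above background in these lungs. Of the 1362 receptor probes, 806 (59.2%) were well above background on none of the 8 arrays, against 20.8% of all 45598 probes. Per array, 16.9% and 16.0% of the receptor probes were well above background in smoke+EV lungs, 14.5% and 14.2% in smoke+MSC lungs, 24.7% and 17.9% in smoke lungs, and 20.5% and 8.81% in naive lungs. The share over all probes was 48.0% to 71.2%. The 2 naive arrays lay further apart than those of any other group, and their range took in every array except smoke array 1. The 4 probes of type 1 taste receptors showed this most plainly, with 4 above background on naive array 1 and 0 on naive array 2.

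**Figure D1:**
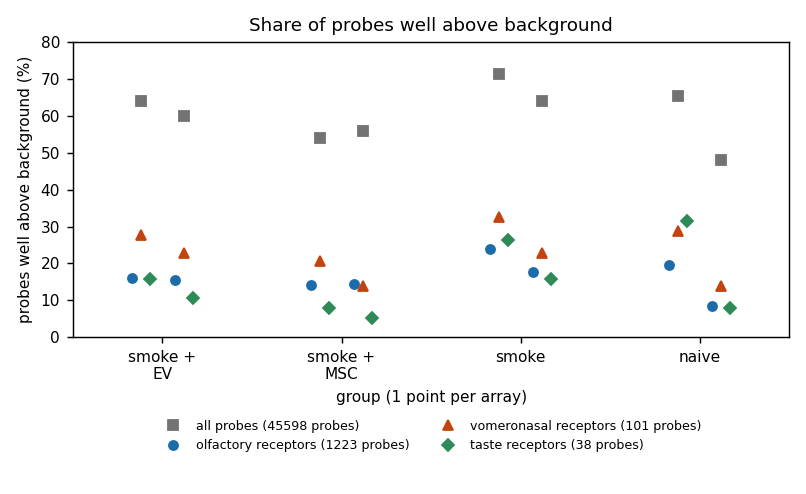
Share of probes well above background on each array (vertical axis, percent), by group; each point is 1 array, circles are olfactory, triangles vomeronasal and diamonds taste receptor probes, and squares are all 45598 probes. The receptor families lie below the share over all probes on each of the 8 arrays.

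Kept for testing were the probes with signal well above background on both arrays in 1 or more groups. These were 218 receptor probes from 211 genes: 189 olfactory, 24 vomeronasal and 5 taste probes. Over the whole array 29780 probes were kept. The filter passed 45 of the 218 through smoke lungs alone, 14 through smoke+MSC lungs alone, 10 through smoke+EV lungs alone and 4 through naive lungs alone. A probe passed by 1 group alone was high there by selection, so counts over the kept probes describe them and support nothing about the whole families. The 806 probes never above background, and the others that failed the filter, have no measured level here.

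The tissue was lung by its markers. The 9 lung markers, among them the surfactant genes Sftpb, Sftpc and Sftpd and the club cell gene Scgb1a1, were above background on both arrays of every group. The 7 markers of olfactory neurons were mixed. Gng13, a G protein gamma subunit, was above background on all 8 arrays, at 237 to 3399 signal units. Gnal and Adcy3 were above background on both smoke arrays only, at 188 and 127 units for Gnal and 73.8 and 38.3 units for Adcy3. Rtp1, which helps to bring the receptors to the cell surface, was above background on 4 arrays, among them both of smoke, at 33.1 and 24.3 units. Cnga2 was above background on 1 smoke array. Stoml3 lay between 1.77 and 4.86 units and was above background on 0 arrays, and Omp, the olfactory marker protein, was above background on 1 array, at 14.3 units in a smoke+MSC lung. Of the 7 olfactory neuron markers, 1 was above background on both arrays in smoke+EV, smoke+MSC and naive lungs and 4 in smoke lungs, with summed signals of 477 to 867, 272 to 317, 3506 to 3604 and 532 to 822 units in smoke+EV, smoke+MSC, smoke and naive lungs. Trpc2 had no probe matched here. In these bulk samples, fewer cells of a type and less RNA per cell cannot be told apart.

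The direction of most receptor differences depended on how the arrays were scaled. The processed signal was brighter on the smoke arrays as a whole. Its 75th percentile over an array was 762 and 483 units in smoke+EV lungs, 246 and 256 units in smoke+MSC lungs, 3235 and 2677 units in smoke lungs, and 568 and 362 units in naive lungs. The geometric mean percentile of smoke lungs was 6.49 times that of naive lungs. The E1A spike-in controls, RNAs added during labelling, were in smoke lungs at 0.839 times the naive level. Levels below are log2 signal minus the array's 75th percentile unless E1A scaling is named, so a difference says how a probe moved relative to the bright end of its own array.

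On the percentile scale, kept receptor probes were lower in smoke lungs than in naive lungs. limma, with Benjamini-Hochberg adjustment over all 29780 kept probes at a threshold of 0.05, called 0 of the 218 receptor probes higher and 140 lower, where it called 12.8% of all kept probes higher and 33.7% lower. The 140 were 122 of 189 olfactory, 15 of 24 vomeronasal and 3 of 5 taste probes. The median difference was -1.37 (log2) over the receptor probes and -0.56 over all kept probes. With E1A scaling, limma called 140 of the 218 higher and 7 lower, against 83.0% and 0.473% of all kept probes, with medians of 1.59 and 2.39. Of the 140 probes called lower on the percentile scale, 124 had the opposite sign with E1A scaling. Changing the scaling shifts the difference of every probe with a value on each array by the same amount, so the gap between the 2 medians does not depend on it. Without smoke array 1 fewer receptor probes were called on the percentile scale, with a median of -1.32. The share over all kept probes in that refit is not given, so the fall is no result about the receptors.

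**Figure D2:**
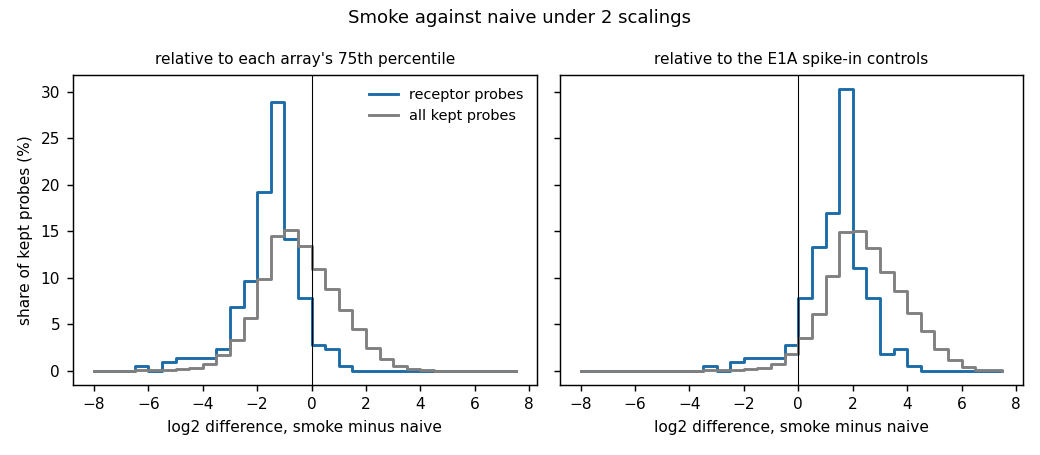
Log2 difference between smoke and naive lungs (horizontal axis, smoke minus naive) for the 218 kept receptor probes and all 29780 kept probes, as the share of probes per bin of the axis (vertical axis, percent), relative to each array's 75th percentile (left) and to the E1A controls (right). The receptor medians are -1.37 and 1.59, and those over all kept probes are -0.56 and 2.39.

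On the percentile scale the receptor medians were also the lower ones among probes of like brightness. When all kept probes were split into 4 equal groups by mean signal, 128, 68, 18 and 4 receptor probes fell in them, dimmest first. Their median smoke-minus-naive differences on the percentile scale were -1.25, -1.62, -1.98 and -3.05, against -0.57, -0.66, -0.37 and -0.60 over all probes of the same group. The brightest of these groups held only 4 receptor probes.

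The receptor probes above background on all 8 arrays were not selected through a single group. There were 80, and their median unscaled signal was 50.2 and 36.2 units in smoke+EV lungs, 42.1 and 31.0 units in smoke+MSC lungs, 90.4 and 88.6 units in smoke lungs, and 45.6 and 37.6 units in naive lungs. All 19959 probes above background on every array had medians of 254 and 172 units in smoke+EV lungs, 99.3 and 97.3 units in smoke+MSC lungs, 987 and 816 units in smoke lungs, and 195 and 132 units in naive lungs. Signal was thus highest in smoke lungs in both sets, but less so for the receptors. The highest of the 8 unscaled signals was 3.42 times the lowest for the median receptor probe and 9.66 times for the median of all such probes. 10 of the 80 receptor probes (12.5%) ranged by less than 2-fold across the 8 arrays, against 4.03% of the 19959. The receptor probes were dimmer, and the ranges were not compared among probes of like brightness. The narrower range is therefore not shown to be a trait of receptors.

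**Figure D3:**
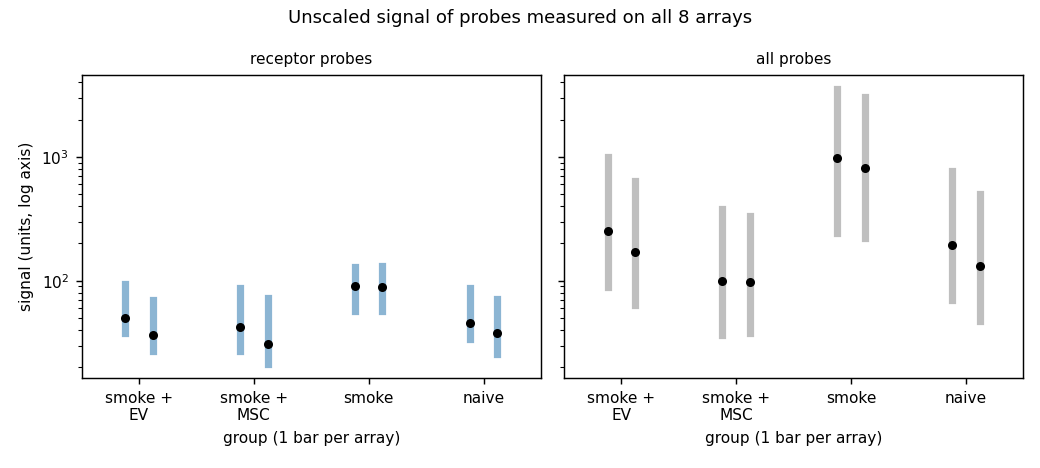
Unscaled signal of the 80 receptor probes (left) and all 19959 probes (right) that were above background on all 8 arrays, on a log axis in signal units; each bar spans the quartiles of 1 array and the point is its median. Receptor medians lie between 31.0 and 90.4 units, and those of all probes between 97.3 and 987 units.

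Or6k4 had the narrowest range of the 80. Its signal was 178 and 192 units in smoke+EV lungs, 192 and 190 units in smoke+MSC lungs, 151 and 161 units in smoke lungs, and 194 and 213 units in naive lungs, a 1.41-fold range. Both smoke arrays were the lowest, and the groups otherwise lay close together. On the percentile scale the smoke-minus-naive difference was -3.08 ± 0.39 (log2, SE; adjusted p = 0.00239, limma, n = 2 each), and with E1A scaling it was -0.13 (adjusted p = 0.809). Or6k4 was named after its values were seen.

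7 olfactory receptor probes were called lower in smoke lungs than in naive lungs under both scalings: Or9q1, Or8g36b, Or52e8b, Or52e51, Or8h7, Or4p7 and Or8h7b. They are 3.21% of the 218 receptor probes, beside 0.473% (141) of all kept probes. All 141 probes called lower with E1A scaling were also called lower on the percentile scale. The shift between the scalings makes every such difference more negative there, so the percentile call is no separate support. Each kept its direction and its call under every alternative that gave it a value. In 5 of them neither smoke array was above background, so the sizes of their fitted differences are not measured and have no order, and for 1 of the 5, Or52e51, the bound described below allowed no fold with E1A scaling. Their odorants are not annotated in the files used here. Or52e8b and Or52e51 are class I receptors, a group related to those of fish, and the others are class II.

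Sequences before the coding start are shown for 4 of the 7, chosen for contrast: Or8h7 and Or8h7b are neighbours with related sequences, Or9q1 lacks the motif looked for and Or52e51 carries it on the other strand. They are RefSeq windows of 300 bases in build GRCr8, 250 before and 50 after the annotated gene start, printed 5′ to 3′ on the strand of the gene, with capitals marking the letters TATAAA on either strand.
Or9q1, chr1:220385200-220385499, minus strand: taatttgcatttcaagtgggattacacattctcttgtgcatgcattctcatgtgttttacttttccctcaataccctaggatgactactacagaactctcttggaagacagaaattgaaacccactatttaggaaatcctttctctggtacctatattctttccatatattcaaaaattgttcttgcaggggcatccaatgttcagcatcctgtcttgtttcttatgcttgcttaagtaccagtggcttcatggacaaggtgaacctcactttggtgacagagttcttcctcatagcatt
Or8h7, chr3:92455417-92455716, minus strand: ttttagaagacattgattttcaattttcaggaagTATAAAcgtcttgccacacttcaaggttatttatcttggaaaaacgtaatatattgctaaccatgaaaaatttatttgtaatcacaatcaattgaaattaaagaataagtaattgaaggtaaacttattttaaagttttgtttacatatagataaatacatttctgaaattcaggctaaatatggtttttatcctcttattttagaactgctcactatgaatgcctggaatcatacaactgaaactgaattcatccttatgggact
Or8h7b, chr3:92298000-92298299, minus strand: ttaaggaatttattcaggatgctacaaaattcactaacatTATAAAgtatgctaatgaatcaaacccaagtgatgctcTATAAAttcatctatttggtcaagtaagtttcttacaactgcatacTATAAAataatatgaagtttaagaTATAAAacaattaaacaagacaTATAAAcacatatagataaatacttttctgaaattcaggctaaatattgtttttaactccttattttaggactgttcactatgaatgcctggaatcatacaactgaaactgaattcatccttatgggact
Or52e51, chr1:167068544-167068843, plus strand: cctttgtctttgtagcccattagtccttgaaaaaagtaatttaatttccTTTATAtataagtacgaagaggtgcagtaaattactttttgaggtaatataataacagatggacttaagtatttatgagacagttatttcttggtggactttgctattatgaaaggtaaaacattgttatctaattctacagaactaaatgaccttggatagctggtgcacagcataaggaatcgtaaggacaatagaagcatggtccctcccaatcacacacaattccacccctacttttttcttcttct
The annotated start of 97.1% of 1085 olfactory receptor windows is the ATG of the coding sequence, against 9.0% of all windows, so these windows cover the bases just before the protein and may lie far from where transcription begins. TATAAA, the core of a TATA box, was found on either strand in 4 of the 7 (Or52e51, Or8h7b, Or8h7 and Or4p7), in 38.1% of 1293 receptor windows and in 14.2% of all 33469 windows. Receptor windows held a median of 35.7% G and C, against 51.7% over all windows. TAATTA, a homeodomain motif, was in 0 of the 7, in 19.1% of receptor windows and in 5.36% of all windows. The windows of Or8h7 and Or8h7b shared 68.1% of aligned positions, and those of the other pairs 48.0% to 50.5%. 2 protein-coding genes lie between Or8h7 and Or8h7b in the annotation.

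Or9q1 was dim in smoke lungs and above background in the other 3 groups. Its signal was 72.8 and 57.3 units in smoke+EV lungs, 178 and 99.1 units in smoke+MSC lungs, 2.96 and 5.41 units in smoke lungs, and 72.8 and 32.8 units in naive lungs. For a group whose 2 arrays both failed that mark, the fold change is a bound. It sets the bright group's mean against a floor for the dim group, taken on each array as the dimmest signal that still counted as above background, or the probe's own signal if higher. By that bound Or9q1 was at least 21.1-fold lower in smoke lungs than in naive lungs on the percentile scale (limma adjusted p = 0.0023) and at least 2.74-fold lower with E1A scaling (adjusted p = 0.000115). The bounds against smoke lungs were at least 20.9-fold higher in smoke+EV lungs and at least 104-fold higher in smoke+MSC lungs on the percentile scale, and 3.77-fold and 6.46-fold with E1A scaling.

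Or8g36b gave 41.4 and 35.4 units in smoke+EV lungs, 60.8 and 58.1 units in smoke+MSC lungs, 2.55 and 10.3 units in smoke lungs, and 35.0 and 24.4 units in naive lungs. The smoke arrays were again the only ones not above background. It was at least 12.7-fold lower in smoke than in naive lungs on the percentile scale (limma adjusted p = 0.00234) and at least 1.64-fold lower with E1A scaling (adjusted p = 0.00269).

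Or52e8b was the brightest of the 7, at 181 and 241 units in smoke+EV lungs, 424 and 528 units in smoke+MSC lungs, 6.93 and 62.4 units in smoke lungs, and 128 and 106 units in naive lungs. The groups did not overlap, although the smoke arrays lay far apart and 1 of them was not above background. The smoke-minus-naive difference was -5.18 ± 0.97 (log2, SE; limma adjusted p = 0.00558) on the percentile scale and -2.23 (adjusted p = 0.01) with E1A scaling.

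Or52e51 gave 26.7 and 26.6 units in smoke+EV lungs, 43.1 and 54.3 units in smoke+MSC lungs, 2.25 and 4.27 units in smoke lungs, and 15.3 and 9.53 units in naive lungs. Neither smoke array and only 1 naive array were above background. It was at least 5.23-fold lower in smoke than in naive lungs on the percentile scale (limma adjusted p = 0.0023). With E1A scaling the bound allowed no fold, so its call there (adjusted p = 0.00718) rests on fitted signals below background.

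Or4p7 gave 61.3 and 59.4 units in smoke+EV lungs, 166 and 68.5 units in smoke+MSC lungs, 11.7 and 17.0 units in smoke lungs, and 72.4 and 36.6 units in naive lungs. It was at least 21.5-fold lower in smoke than in naive lungs on the percentile scale (limma adjusted p = 0.0023) and at least 2.78-fold lower with E1A scaling (adjusted p = 0.0168).

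Or8h7b, whose window carries TATAAA at 5 places, gave 96.7 and 102 units in smoke+EV lungs, 178 and 170 units in smoke+MSC lungs, 14.0 and 17.1 units in smoke lungs, and 51.4 and 39.7 units in naive lungs. The 4 groups did not overlap. The smoke-minus-naive difference was -4.24 ± 0.35 (log2, SE; limma adjusted p = 0.0023) on the percentile scale and -1.29 (adjusted p = 0.0238) with E1A scaling.

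Its neighbour Or8h7 had 2 kept probes that disagreed. The first gave 50.8 and 48.8 units in smoke+EV lungs, 73.9 and 97.2 units in smoke+MSC lungs, 7.76 and 5.39 units in smoke lungs, and 30.0 and 20.1 units in naive lungs, and was at least 10.6-fold lower in smoke than in naive lungs on the percentile scale (limma adjusted p = 0.0023) and at least 1.38-fold lower with E1A scaling (adjusted p = 0.00879). The second gave 103 and 69.6 units in smoke+EV lungs, 68.4 and 42.9 units in smoke+MSC lungs, 122 and 105 units in smoke lungs, and 92.9 and 46.2 units in naive lungs, highest rather than lowest in smoke. Its smoke-minus-naive difference was -1.91 on the percentile scale (adjusted p = 0.00444) and 1.04 with E1A scaling (adjusted p = 0.0926), so the lower call of Or8h7 under both scalings rests on 1 of its probes.

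**Figure D4:**
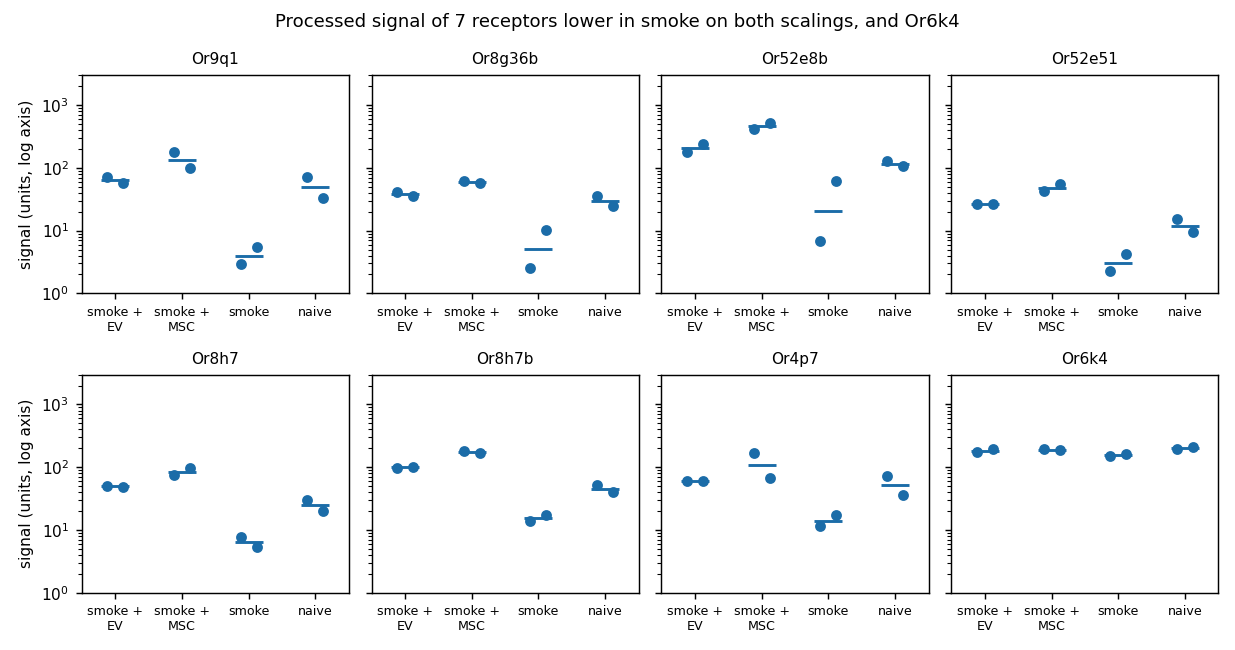
Processed signal per array (log axis, signal units) of the 7 probes called lower in smoke lungs under both scalings, and of Or6k4; points are arrays and bars are geometric means of 2 arrays. The smoke arrays are the lowest in each of the 7 panels, and Or6k4 ranges by 1.41-fold.

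Testis markers were included because olfactory receptors are also known from testis. Prm2, a sperm protamine, gave 267 and 195 units in smoke+EV lungs, 622 and 355 units in smoke+MSC lungs, 94.2 and 120 units in smoke lungs, and 254 and 195 units in naive lungs. Its smoke arrays were the lowest, with a smoke-minus-naive difference of -3.77 on the percentile scale (limma adjusted p = 0.0023) and -0.82 with E1A scaling (adjusted p = 0.153). Of the 5 testis markers 2 were kept, Prm1 and Prm2, and Odf1 was above background on 0 arrays. On the percentile scale limma called both kept markers lower in smoke than in naive lungs. With E1A scaling it called 1 of the 2 higher, Prm1, and 0 lower, beside 83.0% and 0.473% of all kept probes. Prm1 thus went opposite to Prm2 on that scale. The summed signal of the list was 259 to 355, 416 to 677, 237 to 294 and 237 to 320 units in smoke+EV, smoke+MSC, smoke and naive lungs. Its part in the receptor results was not tested.

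Receptor probes were higher in smoke+EV lungs than in smoke lungs on the percentile scale. limma called 112 of the 218 higher and 0 lower, beside 28.4% and 10.5% of all kept probes, with medians of 1.20 and 0.50 (log2). With E1A scaling the counts were 8 higher and 106 lower, beside 0.695% and 73.7%, and the medians were -1.27 and -1.97. The 8 called higher under both scalings were the 7 probes above and Or52m2. All 207 kept probes called higher with E1A scaling were also called higher on the percentile scale, so the percentile call is no separate support. All comparisons with smoke lungs share the same 2 smoke arrays, so a high or low smoke value moves each of them together. Fewer receptor probes were called without either smoke array or either smoke+EV array, where the medians lay between 1.03 and 1.33. Shares over all kept probes in these refits are not given, so the falls are no result about the receptors.

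Receptor probes were also higher in smoke+MSC lungs than in smoke lungs on the percentile scale. limma called 171 of the 218 receptor probes higher than in smoke lungs and 3 lower, beside 41.9% and 16.9% of all kept probes, with medians of 2.10 and 0.68. With E1A scaling 10 were higher and 156 lower, beside 0.702% and 88.2%, with medians of -1.91 and -3.33. The 10 called higher under both scalings were the 8 named for the vesicles, Or51f1f and Or8b51b. All 209 kept probes called higher with E1A scaling were also called higher on the percentile scale, so again the percentile call adds nothing. Or51f1f gave 45.4 and 46.0 units in smoke+EV lungs, 96.0 and 82.0 units in smoke+MSC lungs, 18.2 and 25.5 units in smoke lungs, and 37.9 and 38.0 units in naive lungs. Its smoke+MSC-minus-smoke difference was 5.59 ± 0.41 on the percentile scale (limma adjusted p = 0.000233) and 1.58 with E1A scaling (adjusted p = 0.00651).

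The 3 receptor probes called lower in smoke+MSC than in smoke lungs on the percentile scale were Vom2r15, Vom2r55 and Or5w11. They were also called lower with E1A scaling, as were all 5036 kept probes called lower on the percentile scale. The E1A call is thus no separate support. All 3 turned positive with normexp background correction. Vom2r15 gave 23.3 and 24.6 units in smoke+EV lungs, 1.67 and 1.80 units in smoke+MSC lungs, 97.8 and 117 units in smoke lungs, and 26.4 and 41.0 units in naive lungs. Only the smoke+MSC arrays were not above background. It was at least 1.12-fold lower in smoke+MSC than in smoke lungs on the percentile scale (limma adjusted p = 0.00396) and at least 18.0-fold lower with E1A scaling (adjusted p = 2.68e-07).

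Vom2r55 had 2 kept probes, which disagreed in smoke+MSC lungs. The first gave 24.7 and 13.9 units in smoke+EV lungs, 1.62 and 1.75 units in smoke+MSC lungs, 51.1 and 69.7 units in smoke lungs, and 22.0 and 36.5 units in naive lungs. The second gave 19.3 and 14.3 units in smoke+EV lungs, 22.2 and 12.2 units in smoke+MSC lungs, 34.3 and 38.0 units in smoke lungs, and 15.6 and 11.6 units in naive lungs. Neither smoke+MSC array was above background for the first probe. Its bound against smoke lungs allowed no fold on the percentile scale, where limma called it lower (adjusted p = 0.0218), and it was at least 10.1-fold lower with E1A scaling (adjusted p = 4.1e-07). The second probe's smoke+MSC-minus-smoke difference was 2.42 on the percentile scale (adjusted p = 0.00129) and -1.59 with E1A scaling (adjusted p = 0.01).

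Or5w11 gave 62.7 and 31.2 units in smoke+EV lungs, 9.79 and 13.6 units in smoke+MSC lungs, 331 and 265 units in smoke lungs, and 42.1 and 22.2 units in naive lungs. The smoke arrays were the highest and the smoke+MSC arrays the lowest, with no overlap. Its smoke+MSC-minus-smoke difference was -1.13 ± 0.30 on the percentile scale (limma adjusted p = 0.0129) and -5.14 with E1A scaling (adjusted p = 1.16e-06).

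Olr1, the scavenger receptor set apart above, followed the pattern of Or5w11. Its signal was 89.9 and 95.1 units in smoke+EV lungs, 18.1 and 8.31 units in smoke+MSC lungs, 706 and 434 units in smoke lungs, and 61.7 and 28.5 units in naive lungs. The smoke-minus-naive difference was 1.03 ± 0.47 on the percentile scale (limma adjusted p = 0.106) and 3.98 with E1A scaling (adjusted p = 4.65e-05). The smoke+MSC-minus-smoke difference was -1.94 (adjusted p = 0.00895) and, with E1A scaling, -5.95 (adjusted p = 5.84e-07).

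Taste receptors had 5 kept probes of 38. Tas2r116, a bitter receptor, was nearly level at 34.3 and 25.4 units in smoke+EV lungs, 39.0 and 28.7 units in smoke+MSC lungs, 39.9 and 39.2 units in smoke lungs, and 29.0 and 23.7 units in naive lungs. Its smoke-minus-naive difference was -2.10 on the percentile scale (limma adjusted p = 0.00294) and 0.85 with E1A scaling (adjusted p = 0.129).

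Tas2r113 was highest in smoke, at 24.6 and 30.7 units in smoke+EV lungs, 15.3 and 11.8 units in smoke+MSC lungs, 55.1 and 51.1 units in smoke lungs, and 20.1 and 20.8 units in naive lungs. The difference between smoke and naive lungs was -1.32 on the percentile scale (limma adjusted p = 0.0344) and 1.63 with E1A scaling (adjusted p = 0.00741), opposite in sign. Tas2r124 was above background only on the smoke arrays, at 8.29 and 5.28 units in smoke+EV lungs, 6.42 and 2.32 units in smoke+MSC lungs, 59.6 and 41.4 units in smoke lungs, and 9.04 and 3.92 units in naive lungs. It was at least 5.28-fold higher in smoke than in naive lungs with E1A scaling (limma adjusted p = 0.000284), and on the percentile scale the bound allowed no fold (adjusted p = 0.563). Tas2r124 passed the filter through smoke lungs alone, so it was high there by selection.

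Tas2r145 was not above background on any treated array, at 6.07 and 3.71 units in smoke+EV lungs and 7.02 and 2.76 units in smoke+MSC lungs, beside 22.4 and 18.4 units in smoke lungs and 11.5 and 26.3 units in naive lungs. It passed the filter through naive lungs alone, so it was high there by selection. Its percentile-scale call as lower in smoke than in naive lungs therefore adds no support. Tas1r1, a subunit of the umami receptor and the only kept type 1 taste probe, gave 17.1 and 9.84 units in smoke+EV lungs, 9.99 and 6.03 units in smoke+MSC lungs, 49.7 and 35.1 units in smoke lungs, and 12.3 and 6.14 units in naive lungs. Its smoke-minus-naive difference was -0.43 (limma adjusted p = 0.326) on the percentile scale and 2.52 (adjusted p = 0.00115) with E1A scaling. Like Tas2r124, Tas1r1 passed the filter through smoke lungs alone, so it was high there by selection.

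**Figure D5:**
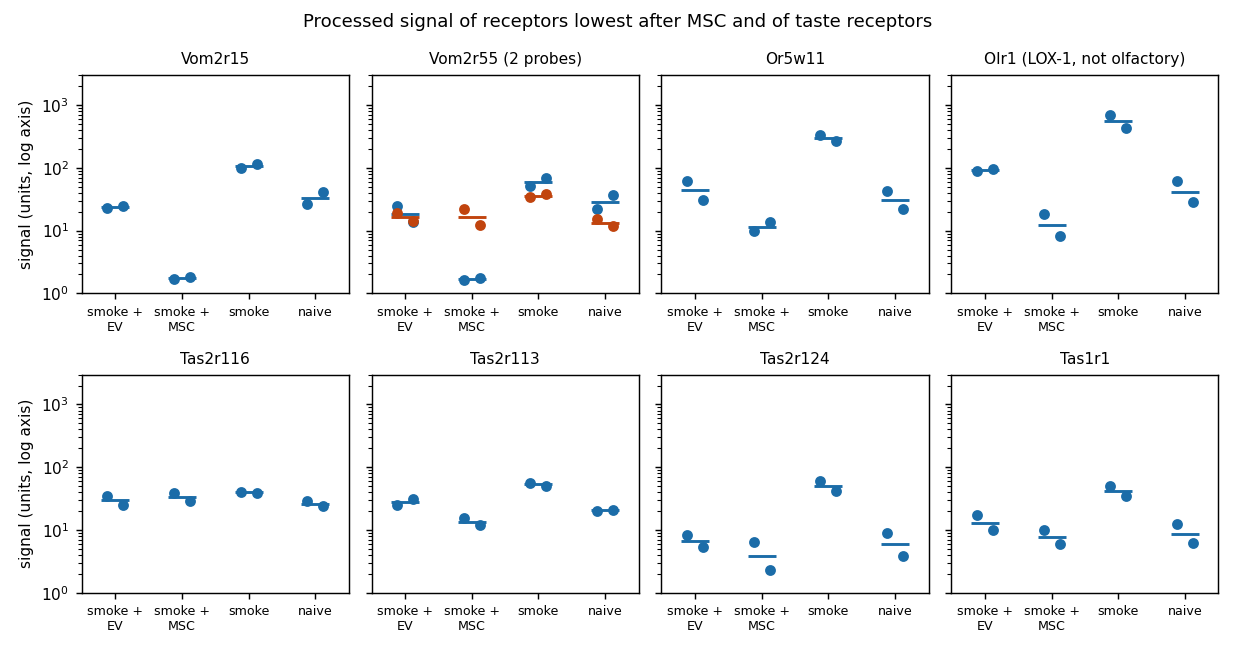
Processed signal per array (log axis, signal units) of the receptors called lowest in smoke+MSC lungs, of Olr1 and of 4 taste receptors; points are arrays, bars are geometric means of 2 arrays, and the colours in the Vom2r55 panel are its 2 probes. Vom2r15 lies at 1.67 and 1.80 units in smoke+MSC lungs, against 97.8 and 117 units in smoke lungs.

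The brightest vomeronasal receptors were Vom2r34 and Vom1r55. Vom2r34 gave 2158 and 2359 units in smoke+EV lungs, 1507 and 1497 units in smoke+MSC lungs, 1028 and 1384 units in smoke lungs, and 2536 and 1866 units in naive lungs. Its smoke-minus-naive difference was -3.56 ± 0.37 on the percentile scale (limma adjusted p = 0.0023) and -0.61 with E1A scaling (adjusted p = 0.252). Vom1r55 gave 455 and 294 units in smoke+EV lungs, 292 and 241 units in smoke+MSC lungs, 855 and 841 units in smoke lungs, and 282 and 287 units in naive lungs. It was opposite to Vom2r34 in unscaled signal, since smoke was the highest group, with differences of -1.12 on the percentile scale (adjusted p = 0.0258) and 1.83 with E1A scaling (adjusted p = 0.00403).

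The brightest olfactory receptors differed in the same way. Or13l2 gave 695 and 543 units in smoke+EV lungs, 1226 and 547 units in smoke+MSC lungs, 375 and 605 units in smoke lungs, and 721 and 372 units in naive lungs, and these groups overlapped. Or8b54c gave 456 and 394 units in smoke+EV lungs, 728 and 710 units in smoke+MSC lungs, 317 and 401 units in smoke lungs, and 649 and 443 units in naive lungs. Or2t48e was highest in smoke, at 409 and 279 units in smoke+EV lungs, 254 and 283 units in smoke+MSC lungs, 1228 and 1047 units in smoke lungs, and 354 and 309 units in naive lungs.

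Between the treatments, few receptor probes were called. On the percentile scale, limma, comparing smoke+EV with smoke+MSC lungs, called 2 of the 218 higher (Vom2r15 and Vom2r55) and 29 lower, beside 1.52% and 4.23% of all kept probes, with medians of -1.07 and -0.28. With E1A scaling it called 14 higher and 0 lower, beside 40.2% and 0.0369%, and the medians were 0.47 and 1.26. In 1 of the 29 lower calls neither treatment was above background, and in 5 of them and in both higher calls 1 treatment was not. Fewer than 31 were called without either naive array, and none without any 1 of the smoke, smoke+EV or smoke+MSC arrays. Shares over all kept probes in these refits are not given, so the falls are no result about the receptors.

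Against naive lungs, limma called 0 receptor probes and 0 (0%) of all kept probes for either treatment on the percentile scale. At an unadjusted p under 0.05 there were 8 receptor probes for smoke+EV and 84 for smoke+MSC, beside 1250 and 6434 of all kept probes. With E1A scaling the adjusted calls were 0 receptor probes for smoke+EV (0.00672% of all kept probes, all lower) and, for smoke+MSC, 2 higher and 6 lower, beside 0.0604% and 5.8% of all kept probes. The receptor medians were -0.27 for smoke+EV and 0.77 for smoke+MSC on the percentile scale, beside -0.05 and 0.23 over all kept probes.

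The genes that carry the receptors' signals were called in both directions on the percentile scale. Of 41 signalling genes 36 had a probe and 28 had a kept one, and each gene was counted by its brightest kept probe. In smoke against naive lungs 6 of the 28 were called higher and 9 lower on that scale, beside 12.8% and 33.7% of all kept probes. Under E1A scaling 23 were higher and 0 lower, beside 83.0% and 0.473%. The 9 lower and the 23 higher are near those shares and are no result about the signalling genes. The genes called higher were Gnal and Adcy3 of the olfactory cascade and Gnat3, Itpr3, Trpm5 and Trpm4 of the taste cascade. Of these, Gnal, Adcy3 and Gnat3 passed the filter through smoke lungs alone and were high there by selection. Those called lower were Cngb1, Rtp2, Pde4a, Gnao1, Otop1, Entpd2, Plcb2, Reep1 and Rtp3, among them the export helpers Rtp2, Rtp3 and Reep1. Other kept probes could differ. For Gnao1 the difference was -3.11 by the counted probe and 1.00 by the other (limma adjusted p = 0.0637). Gnb1, not called by its brightest probe, had others called higher, at 2.23 and 2.08 (adjusted p = 0.00245 and 0.00304). Ebf1 and Gng8, also not called, each had another called lower, at -1.68 and -1.28 (adjusted p = 0.0205 and 0.0416).

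Gnat3, the alpha subunit of gustducin, gave 7.42 and 4.29 units in smoke+EV lungs, 3.46 and 2.69 units in smoke+MSC lungs, 118 and 117 units in smoke lungs, and 1.47 and 5.23 units in naive lungs. It was above background only in smoke lungs, at least 1.83-fold higher there than in naive lungs on the percentile scale (limma adjusted p = 0.017) and at least 14.2-fold with E1A scaling. Gnal, which couples olfactory receptors to the cyclase, gave 6.26 and 4.51 units in smoke+EV lungs, 4.49 and 3.78 units in smoke+MSC lungs, 188 and 127 units in smoke lungs, and 7.93 and 3.40 units in naive lungs. It was at least 2.26-fold higher in smoke than in naive lungs on the percentile scale (limma adjusted p = 0.00283). Trpm5, the taste cation channel, gave 61.2 and 35.4 units in smoke+EV lungs, 30.0 and 23.9 units in smoke+MSC lungs, 554 and 757 units in smoke lungs, and 33.8 and 49.2 units in naive lungs. Unscaled, these genes were bright in smoke, where the 7 olfactory receptors were dim. With normexp background correction the smoke-minus-naive differences of Gnat3, Gnal and Adcy3 turned negative. Gnat3, Gnal and Adcy3 passed the filter through smoke lungs alone. They were high there by selection, and their p-values add no support.

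Plcb2, the phospholipase of the taste cascade, ran the other way on the percentile scale, with 405 and 407 units in smoke+EV lungs, 525 and 270 units in smoke+MSC lungs, 246 and 341 units in smoke lungs, and 455 and 218 units in naive lungs. Its difference was -2.81 (limma adjusted p = 0.00368) between smoke and naive lungs, and 0.13 with E1A scaling.

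Tuft cells of the airway share the taste cascade, and the summed signal of its markers was highest in smoke, as was the signal of the arrays as a whole. Of 9 tuft and taste cell markers, 4, 3, 7 and 3 were above background on both arrays in smoke+EV, smoke+MSC, smoke and naive lungs. Over all 45598 probes the numbers were 26179, 22824, 28367 and 21430 in those groups. The summed marker signals were 635 to 1162, 384 to 442, 5501 to 6286 and 418 to 723 units. limma called 3 of the 7 kept markers higher and 0 lower in smoke than in naive lungs, beside 12.8% and 33.7% of all kept probes. Each marker was counted by its brightest kept probe, and Gnat3 had passed the filter through smoke lungs alone. With E1A scaling 7 were higher and 0 lower, beside 83.0% and 0.473%, a count near what that share gives. The 5 markers of olfactory support cells and glands had 4 kept, and their summed signals were 136 to 2501, 123 to 2323, 911 to 1100 and 112 to 262 units in smoke+EV, smoke+MSC, smoke and naive lungs. In each treated group 1 array alone gave the high sum and the other lay below both smoke arrays, so no rise with treatment is shown. The vomeronasal marker Gng8 was above background on both arrays of every group. The part of these cell types in the receptor results was not tested.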

How the data were processed

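RNA of 8 rat lung samples was measured on 1-colour Agilent arrays of design 074036, with 62976 spots each. Per the file headers, the deposited intensity values come from Feature Extraction 10.7.3.1, whose processed signal is background-subtracted with small values raised to a surrogate; they were not normalized between arrays. The other deposited values are flags per spot for background, saturation and outliers, per the file headers. No spot was saturated. The 8 arrays lie on 1 slide and 1 scan, and each group fills 1 slide column. Group and column cannot be told apart.

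Outlier spots were dropped and spots of a probe averaged. Levels are log2 processed signal after subtracting the 75th percentile over the spots of an array, and E1A scaling subtracts the mean log2 signal of 7 of 10 E1A probes (mean above 6). limma 3.58.1 (R 4.3.3, lmFit and eBayes) fitted the 4 group means on 29780 kept probes; the fit has 4 residual degrees of freedom, and the array number limits the precision. 2 kept receptor probes lacked a value on 1 array, and the fit used the others. The script was tested on simulated data. Symbols came from the RefSeq gene table of GRCr8 through unversioned accessions, which named 21215 probes.

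The members and gene lists were chosen with earlier results of these data known. Named receptors are the lowest and highest called per comparison, those called alike under both scalings in smoke against naive, and the brightest of each family. The signalling list is named where called. Alternatives were 2 other scalings (E1A, raw), quantile and cyclic loess normalization, normexp, 2 filters, 1 row per gene, a trended and robust prior, the replicate block and leaving out each array.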

Additional observations from a re-analysis of the deposited data

Results flagged for a closer look

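Of the 31 receptor probes that limma called between smoke+EV and smoke+MSC lungs, 4 with the lowest or highest fitted difference are given here. Both treatments were set against the same smoke lungs, so the test is that of the treatments against each other. On the percentile scale the smoke+EV-minus-smoke+MSC difference was -2.81 for Or52m2, -2.78 for Or5p53, 2.51 for Vom2r15 and 2.19 for Vom2r55 (log2; limma adjusted p of 0.048, 0.0397, 0.0411 and 0.0458, n = 2 each). Or52m2 gave 6.71 and 11.9 units in smoke+EV lungs and 21.1 and 32.2 units in smoke+MSC lungs. Or5p53 gave 5.39 and 4.04 units in smoke+EV lungs, not above background, and 13.5 and 13.0 units in smoke+MSC lungs, a difference of at least 3.62-fold. Vom2r15 and Vom2r55 were not above background on the smoke+MSC arrays, so their fitted differences are not measured sizes. By the bound Vom2r15 was at least 1.22-fold higher in smoke+EV than in smoke+MSC lungs on the percentile scale and at least 3.54-fold higher with E1A scaling. For Vom2r55 the bound allowed no fold on the percentile scale and at least 2.74-fold with E1A scaling. Or5w13b, another of the 31 called by limma on the percentile scale, was above background on none of the 4 arrays of these groups. Its call rests on signals below background, and no size is given. With E1A scaling the differences were -1.28 for Or52m2 and -1.24 for Or5p53 (adjusted p of 0.0648 and 0.109), and the adjusted p of Vom2r15 and Vom2r55 was 0.00182 each. None of the calls among receptors remained when any 1 smoke, smoke+EV or smoke+MSC array was left out.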

How the results depend on the processing

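The scaling decided most directions. The receptor medians with E1A scaling and with raw signal were 1.59 and 1.32 for smoke against naive, -1.27 and -1.07 for smoke+EV against smoke, -1.91 and -1.45 for smoke+MSC against smoke, 0.47 and 0.20 for smoke+EV against smoke+MSC, 0.21 and 0.15 for smoke+EV against naive, and -0.29 and -0.083 for smoke+MSC against naive, each opposite to the percentile value. In the same order of comparisons, quantile normalization gave -0.65, 0.49, 1.04 and -0.70, and 0.46 for smoke+MSC against naive; cyclic loess gave -0.91, 0.72, 1.24 and -0.68, and 0.40. Normexp gave -1.61 for smoke against naive, -0.63 for smoke+EV against smoke+MSC and 0.41 for smoke+MSC against naive. With no filter the medians were -2.09, 1.51 and 2.66 for the first 3 comparisons and -0.58 and 0.58 for smoke+EV and smoke+MSC against naive; with probes on all 8 arrays they were -1.62 and 1.40 for the first 2.

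Called receptor probes in smoke against naive numbered 53 of 218 with quantile, 80 of 216 with cyclic loess and 736 of 1362 with no filter. With probes on all 8 arrays they numbered 75 of 80, where 56.8% of all such probes were called. In smoke+EV against smoke they numbered 37 of 218 with quantile, 55 of 216 with cyclic loess and 200 of 218 with normexp. On all 8 arrays they numbered 66 of 80, where 48.8% of all such probes were called. In smoke+MSC against smoke they numbered 99 of 218 with quantile and 1044 of 1362 with no filter. On all 8 arrays they numbered 78 of 80, where 65.8% of all such probes were called. In smoke+EV against smoke+MSC they numbered 14 of 218 with E1A and 13 of 218 with raw signal, beside 40.2% and 28.3% of all kept probes. With cyclic loess they numbered 16 of 216, and with no filter 0 of 1362. In smoke+MSC against naive they numbered 8, 5, 5, 2 and 3 of 218 with E1A, raw signal, quantile, normexp and the trended prior. With E1A and raw signal, 5.86% and 2.15% of all kept probes were called. Where no share over all probes is given beside a count, the count is no result about the receptors. Filters change how many probes are tested. Other causes were not tested.

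Leaving out each array gave 60 to 142 calls in smoke against naive, 26 to 125 in smoke+EV against smoke, 144 to 178 in smoke+MSC against smoke, 0 to 24 in smoke+EV against smoke+MSC, and 0 to 2 for each treatment against naive. The medians ranged over -1.53 to -1.32, 1.03 to 1.33, 1.97 to 2.32, -1.20 to -0.79, -0.41 to -0.16 for smoke+EV against naive and 0.60 to 0.95 for smoke+MSC against naive. The smallest count in smoke against naive, 60, was without smoke array 1.

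Replicate numbers did not pair the samples: same-numbered deviations correlated between -0.144 and 0.139 over the 6 pairs of groups. With the replicate number as a block, the counts were 141, 111, 176 and 0 for the first 4 comparisons, the last against 31. Shares over all kept probes are not given for that fit, so these counts are no result about the receptors.

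Among named genes in smoke against naive, E1A scaling reversed Or13l2 (0.13), Or2t48e (2.03), Vom1r55 (1.83), Vom1r13 (1.47), Vom1r60 (1.49), Vom2r18 (0.63), Vom2r4 (1.66), Tas1r1 (2.52), Tas2r116 (0.85), Tas2r113 (1.63), Tas2r145 (0.48), Rtp2 (1.01), Pde4a (1.36), Otop1 (1.64), Entpd2 (2.12), Plcb2 (0.13), Reep1 (1.41) and Rtp3 (0.20). Raw signal reversed Or2t48e (1.78), Vom1r55 (1.58), Vom1r13 (1.22), Vom1r60 (1.23), Vom2r18 (0.38), Vom2r4 (1.41), Tas1r1 (2.27), Tas2r116 (0.59), Tas2r113 (1.38), Tas2r145 (0.22), Rtp2 (0.76), Pde4a (1.11), Otop1 (1.39), Entpd2 (1.87) and Reep1 (1.16). Normexp reversed Tas2r124 (-1.39), Adcy3 (-1.01), Gnal (-0.23) and Gnat3 (-0.34) there, Vom2r15 (0.81), Vom2r55 (1.27) and Or5w11 (0.14) in smoke+MSC against smoke, and Vom2r15 (-0.17) and Vom2r55 (-0.20) in smoke+EV against smoke+MSC. Tas1r1 reversed with quantile (0.37) and cyclic loess (0.0022), and Vom2r4 without naive replicate 2 (0.41, against -2.98 without naive replicate 1). Some calls in smoke against naive were lost without a change of sign. Of the 18 alternatives, Entpd2 lost its call in 11, Or2t48e in 9, Trpm5 in 8, Tas2r113 in 6, and Rtp2 and Vom1r13 in 5 each. Signal near background limits every receptor named as not above it.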

Other observations

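Or51e1, a receptor known in human from the prostate, had 2 kept probes and was chosen after its values were seen. The brighter gave 21.4 and 12.4 units in smoke+EV lungs, 18.3 and 11.8 units in smoke+MSC lungs, 59.2 and 49.9 units in smoke lungs, and 18.0 and 5.40 units in naive lungs. Its smoke-minus-naive difference was -0.23 on the percentile scale (limma adjusted p = 0.665) and 2.72 with E1A scaling (adjusted p = 0.00115). Values of the dimmer probe are not given here, so whether the 2 probes agreed is not shown. Among the type 1 vomeronasal receptors, 4 probes of 15 were kept. Vom1r13 gave 17.2 and 11.2 units in smoke+EV lungs, 15.2 and 8.49 units in smoke+MSC lungs, 41.6 and 24.2 units in smoke lungs, and 20.0 and 9.27 units in naive lungs. Vom1r60 gave 16.7 and 11.5 units in smoke+EV lungs, 10.2 and 11.5 units in smoke+MSC lungs, 38.3 and 26.9 units in smoke lungs, and 21.6 and 8.64 units in naive lungs. Vom2r4 had the widest spread within groups of the named genes, with 92.9 and 32.4 units in smoke+EV lungs, 155 and 24.1 units in smoke+MSC lungs, 73.4 and 138 units in smoke lungs, and 14.6 and 97.8 units in naive lungs.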
